A study of Zea mays with 2 samples.

Results

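Thioredoxins, glutaredoxins and peroxiredoxins are the small proteins through which a plant cell reads and repairs the oxidation of protein thiols. The group described here also holds the enzymes around them: thioredoxin reductases, glutathione peroxidases, a glutathione synthetase and methionine sulfoxide reductases. Genes were taken by these words in the deposited descriptions, leaving out those described as protein disulfide isomerases. GRMZM2G176443, described as a putative thioredoxin superfamily protein, was kept among the thioredoxins. Its RefSeq names, pdi11 and PDIL5-3, are those of a protein disulfide isomerase. Each gene had to reach a value of 1 in at least 1 library. Of 71 genes with such a description 63 reached that level, among 29142 genes at that level and 41406 genes listed in all.

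The libraries came from maize (Zea mays) kernels at 12 days after pollination, with endosperm given as the tissue, and there was 1 library of the dek40 genotype and 1 library of the wild type. Dek stands for defective kernel, a class of maize mutants with failed kernel filling. The title and design text of the series name dek41 where the sample labels name dek40, and the name of the sample labels is used here. The sources used here give neither the kind of allele, nor the inbred background, nor the number of kernels pooled.

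A thioredoxin carries a pair of cysteines that it uses to reduce disulfide bonds in other proteins, and it is then reduced again by a thioredoxin reductase with NADPH, or by ferredoxin in plastids. Glutaredoxins do similar work at the expense of glutathione, and some of them carry iron-sulfur clusters. Peroxiredoxins and the plant glutathione peroxidases break down peroxides and are themselves reduced by thioredoxins or glutaredoxins. In cereal grains, h-type thioredoxins are known for reducing the disulfide bonds of storage proteins at germination.

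Levels are given as deposited, in RPKM for dek40 and FPKM for the wild type, which are reads or fragments divided by gene length and library depth. Over genes that reached 1 in each library, the median ratio of the deposited values was 1.34-fold in favour of dek40. Log2 ratios are therefore dek40 over wild type after dek40 values were multiplied by 0.747, with a pseudocount of 1 added to each value. Without this scaling, ratios a little below 0 come out above 0. A gene is called higher or lower where this ratio reached 1 or -1, which is 2-fold. The range in brackets after a ratio is its 95% counting interval, without a pseudocount. With 1 library per genotype there was no replicate check and no test, so each difference is between these libraries only.

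The implied totals were 14218436 for dek40 and 15669149 for the wild type, and the median thiol redox gene rested on at least 185 reads in dek40 and 148 in the wild type. Tissue markers differed between the libraries. All 22 zein genes were lower in dek40 (median log2 ratio -3.21), as were 6 of 7 markers of the basal transfer layer (-3.22 to 0.88). Of 13 embryo markers 5 were lower and 0 were higher (-1.98 to 0.80). Of 11 markers of green tissue 3 were lower and 1 was higher (median log2 ratio 0.03). Over all genes 4.82% were lower and 6.12% were higher. As deposited, without scaling, 2 embryo markers were lower and 2 were higher, and 6 transfer layer markers were lower and 1 was higher. Summed levels of the transfer layer markers were 337 RPKM in dek40 and 1487 FPKM in the wild type, and those of the embryo markers were 647 RPKM in dek40 and 868 FPKM in the wild type. Fewer cells of a type and less RNA per cell cannot be told apart in such libraries, and the part of tissue makeup in the ratios below was not tested.

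As a group the thiol redox genes lay close to the background of all genes, and a few single genes lay far from it. Of the 63 genes 6 (9.52%) were higher in dek40, against 6.12% of all 29142 genes, and 4 (6.35%) were lower, against 4.82% of all genes. Their median log2 ratio was -0.02 (95% binomial interval over genes -0.17 to 0.25), beside 0.04 over all genes. The counting interval lay wholly beyond 2-fold for 3 higher genes, against 3.62% of all genes, and for 3 lower ones, against 2.57% of all genes. As deposited, without scaling, 14 of the 63 were higher and 3 lower, against 14.7% and 2.65% of all genes. Their summed level as deposited was 3712 RPKM in dek40 and 3172 FPKM in the wild type. After scaling, the dek40 sum was 2774, below that of the wild type. The deposited sums were 0.268% of all dek40 values and 0.220% of all wild-type values. Those totals include the zeins, at 34433.5 RPKM in dek40 and 232077 FPKM in the wild type. The 6 genes above 2-fold were a pair of thioredoxin reductases, a pair of subgroup I glutaredoxins, a peroxiredoxin and a low thioredoxin superfamily gene. The 4 lower ones were a thioredoxin with next to no reads in dek40, thioredoxin X, a scarce h-type thioredoxin and a subgroup III glutaredoxin.

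**Figure D1:**
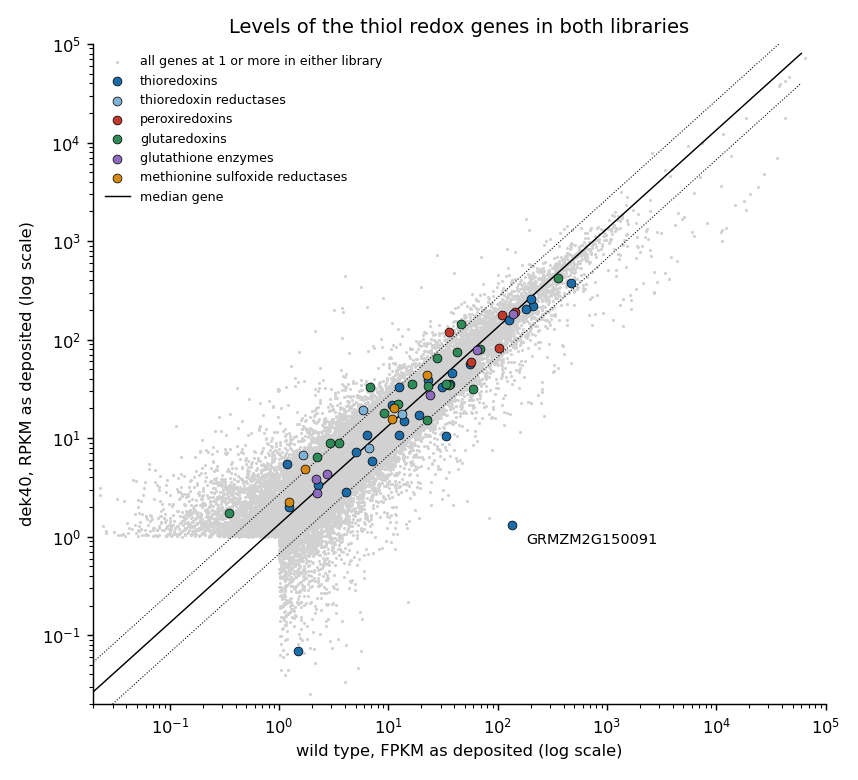
Level of each gene in dek40 (RPKM, vertical axis) against the wild type (FPKM, horizontal axis), both as deposited on log scales; grey dots are the 29142 genes at 1 or more in either library, coloured dots the 63 thiol redox genes by role, the solid line the median gene and the dotted lines 2-fold around it. Most coloured dots lie between the dotted lines, and GRMZM2G150091 lies far below them at 1.30 RPKM and 136 FPKM.

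Thioredoxins and thioredoxin-like proteins were the largest class, with 25 genes, of which 1 was higher, 3 were lower and 21 stayed within 2-fold. Their median log2 ratio was -0.29 (-0.52 to 0.09 over genes), and 17 of the 25 ratios were below 0. The counting interval lay wholly below 0 for 15 of them and wholly above 0 for 4, against 20.5% and 25.0% of all genes. At 100 FPKM or more in the wild type, 4 of 6 thioredoxins had an interval wholly below 0, against 53.7% of the 1475 genes at that level. Under 100 FPKM it was 11 of 19 (57.9%), against 18.7% of the 27667 genes under that level. Deeper counts narrow such intervals. The median thioredoxin rested on at least 171 reads in dek40 and 211 in the wild type, against 83 and 64 over all genes. Under 100 FPKM these medians were 117 and 93 for thioredoxins, against 73 and 57 for all genes. The part of depth in these shares was not tested. As deposited, without scaling, the median of the 25 thioredoxins was above 0, at 0.10 beside 0.39 for all genes, and 9 of them (36.0%) had ratios below 0, against 23.2% of all genes.

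The outstanding gene of the class was GRMZM2G150091, described as a thioredoxin. It stood at 1.30 RPKM in dek40 and 136 FPKM in the wild type, on at least 7 reads in dek40 and 805 in the wild type. The wild-type level made it the fifth most abundant thioredoxin of that library, while in dek40 it was close to the lower limit for this group. The log2 ratio of -6.11 was the lowest of all 29142 genes, and the next lowest gene, GRMZM2G175101, was at -5.27. Without a pseudocount the difference was 140-fold (67.5-fold to 348-fold by counting error). Of 10901 genes at 10 FPKM or more in the wild type, 3 were lower by 50-fold or more in this way, and GRMZM2G150091 was among them. The difference is also larger than that of any zein (-3.89 at the lowest) or transfer layer marker (-3.22 at the lowest). No gene was listed at 0, so any gene without reads in dek40 would be missing from these rankings.

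GRMZM2G150091 is the direct neighbour of another thioredoxin gene in a RefSeq table of a later maize assembly, with 0 other entries between them. That neighbour, GRMZM2G144653, carries the names trxh2 and trh2, which stand for an h-type thioredoxin. It was at 222 RPKM in dek40 and 210 FPKM in the wild type, with a log2 ratio of -0.34 (-0.46 to -0.22). The adjacent thioredoxin thus stayed within 2-fold. Together the pair reached 223 RPKM in dek40 and 345 FPKM in the wild type, and the log2 ratio of their sums was -1.05. GRMZM2G150091 made up 0.582% of the pair in dek40 and 39.3% in the wild type. How alike the sequences of the pair are was not analysed here, so reads may have been split between them.

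The other measured neighbours moved less. On the side of trxh2 came the gene named MEG1 in the table (GRMZM2G354335), at 21.7 RPKM in dek40 and 109 FPKM in the wild type, giving a log2 ratio of -2.67, and then MEG3 (GRMZM2G344323), at 6.47 RPKM in dek40 and 19.1 FPKM in the wild type, for a log2 ratio of -1.79. MEG1 is known as a maternally expressed gene of the basal transfer layer. On the far side of GRMZM2G150091, the SHL1 gene (GRMZM2G097726) was at -0.11, GRMZM2G117369 at -0.78 and GRMZM6G285883 at 0.48. Among these 6 neighbours both genes named MEG were lower by 2-fold, against 4.82% of all genes, and the other 4 were within 2-fold. Between GRMZM2G150091 and the farthest of these neighbours the table lists 7 entries without a value on the side of trxh2 and 6 on the other.

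**Figure D2:**
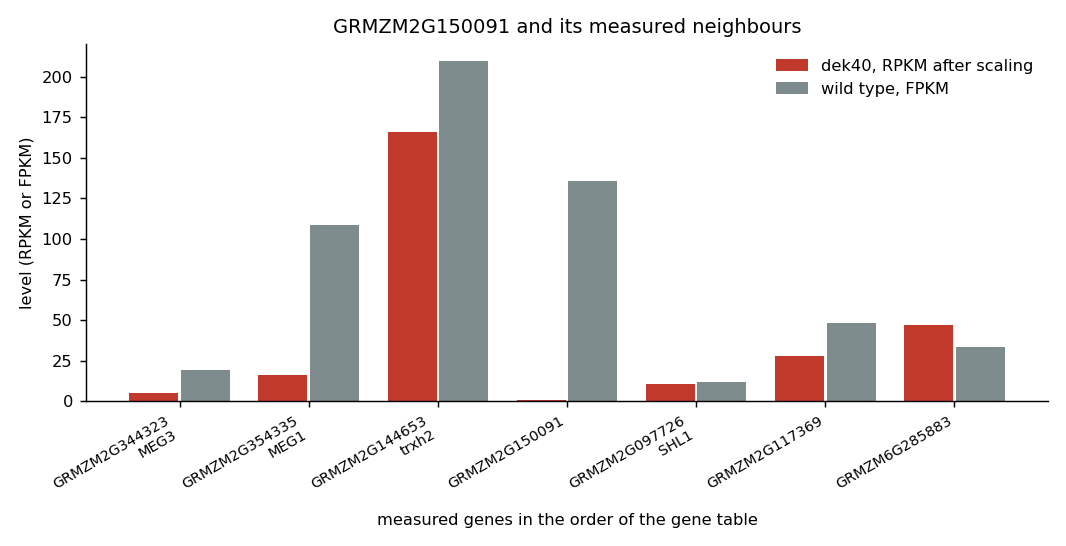
Level of GRMZM2G150091 and of the 3 nearest measured genes on each side, in the order of the RefSeq table, with dek40 (RPKM after scaling by 0.747) as the left bar and wild type (FPKM) as the right bar of each pair; bars are single libraries with no error. The dek40 bar of GRMZM2G150091 is hardly visible beside 136 FPKM in the wild type, while trxh2 next to it stands at 166 in dek40 after scaling and 210 in the wild type.

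Of the 6 thioredoxins at 100 FPKM or more in the wild type, all but GRMZM2G150091 were within 2-fold. The gene trxh1 (GRMZM2G424053), an h-type thioredoxin and the most abundant of all 63 genes in the wild type, was at 379 RPKM in dek40 and 469 FPKM in the wild type. The ratio of -0.73 (-0.81 to -0.65) on the log2 scale was within 2-fold but beyond counting error. In dek40 it came second to a glutaredoxin described below. Thioredoxin-like protein 5 (GRMZM2G382673) was at 261 RPKM in dek40 and 201 FPKM in the wild type, with a log2 ratio of -0.04 (-0.15 to 0.07), so it followed the median gene. GRMZM2G053023 was at 204 RPKM in dek40 and 183 FPKM in the wild type, giving a log2 ratio of -0.26 (-0.38 to -0.14). GRMZM2G174444 was at 157 RPKM in dek40 and 128 FPKM in the wild type, with a ratio of -0.11 (-0.24 to 0.00).

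Thioredoxin X (GRMZM5G892522), which in Arabidopsis is a plastid thioredoxin that serves peroxiredoxin, was lower. It was at 10.6 RPKM in dek40 and 33.9 FPKM in the wild type, on at least 79 reads in dek40 and 279 in the wild type. On the log2 scale the ratio was -1.97 (-2.48 to -1.74), a 3.92-fold difference. The h-type gene GRMZM2G010491 was at 0.0684 RPKM in dek40, on at least 1 read, and 1.49 FPKM in the wild type, on at least 24 reads. Its log2 ratio was -1.24, and the ratio without a pseudocount was 29.1-fold lower (4.75-fold to 1198-fold), so its size is not determined by so few reads.

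An M-type and a further H-type thioredoxin stayed within 2-fold. The M-type thioredoxin GRMZM2G170008, of a plastid type that in leaves is reduced through ferredoxin, was at 32.8 RPKM in dek40 and 31.0 FPKM in the wild type, for a log2 ratio of -0.33. Another H-type gene, GRMZM2G159145, was at 56.5 RPKM in dek40 and 56.3 FPKM in the wild type, with a log2 ratio of -0.41. Both lay within 2-fold, with counting intervals below 0 after scaling. As deposited, their log2 ratios were 0.08 for GRMZM2G170008 and 0.006 for GRMZM2G159145.

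At the other end of the class, GRMZM2G017419, described as a putative thioredoxin superfamily protein, was the 1 higher thioredoxin. It was at 5.46 RPKM in dek40 and 1.18 FPKM in the wild type, on at least 42 reads in dek40 and 10 in the wild type. Its log2 ratio was 1.22 (0.77 to 2.95). GRMZM2G082886, described as a thioredoxin, came next at 33.3 RPKM in dek40 and 12.4 FPKM in the wild type, with a log2 ratio of 0.95 (0.60 to 1.43), just within 2-fold. The summed level of the 25 genes was 1580 RPKM in dek40, or 1181 after scaling, and 1641 FPKM in the wild type, and without GRMZM2G150091 the sums were 1180 in dek40 after scaling and 1506 in the wild type.

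**Figure D3:**
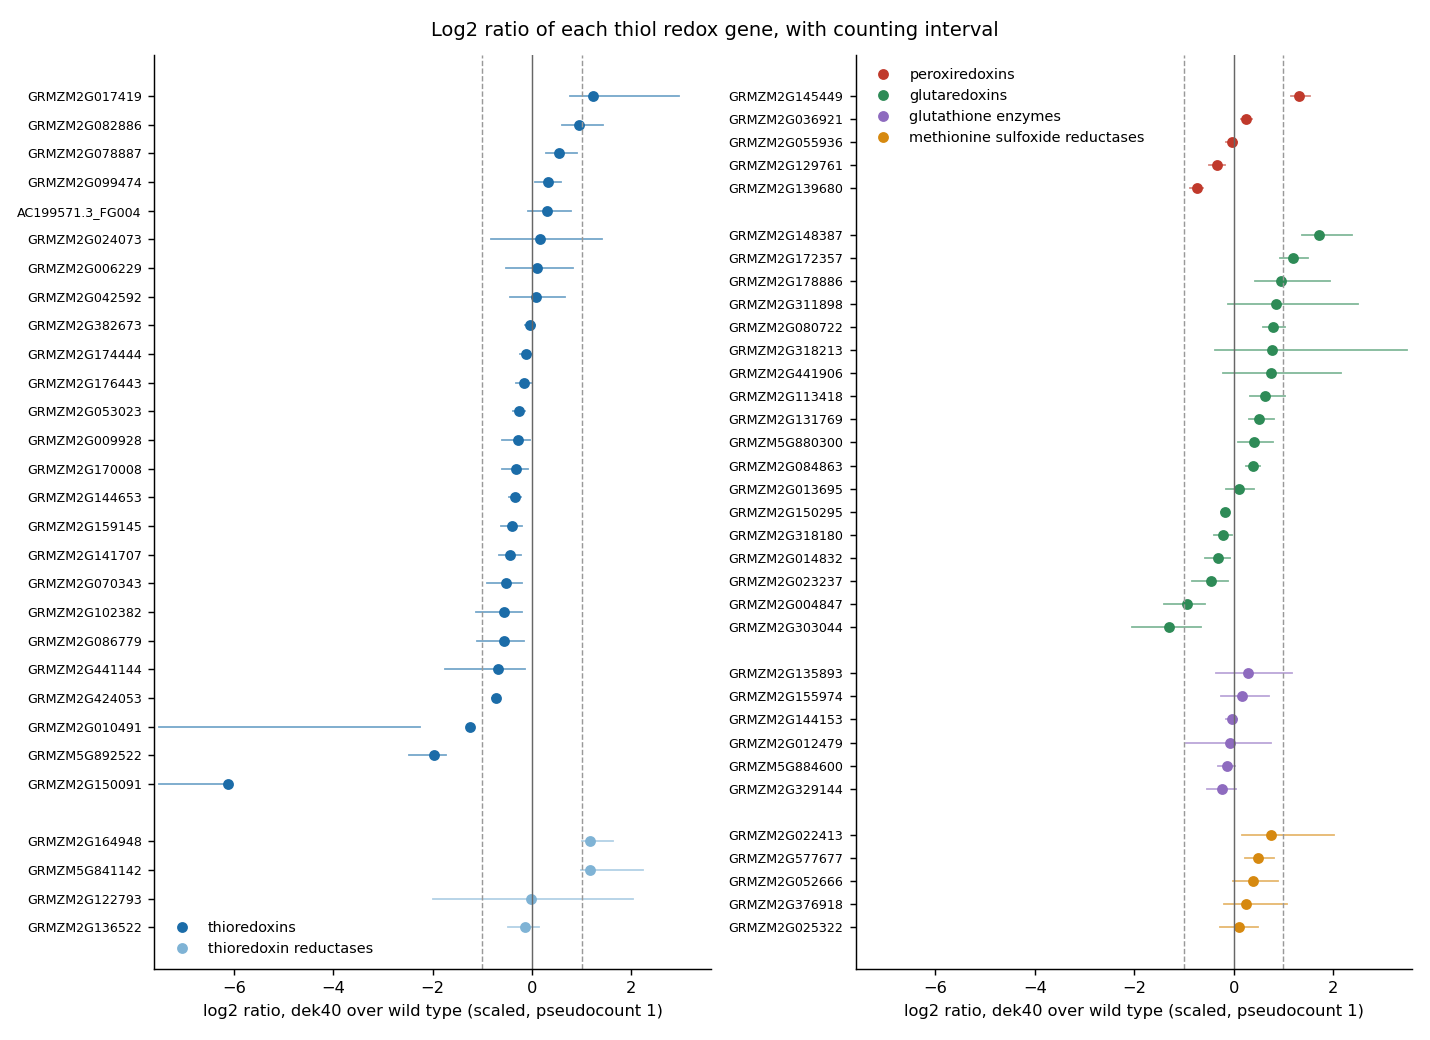
Log2 ratio of dek40 over wild type for each of the 63 thiol redox genes (points, scaled, pseudocount 1), with its 95% counting interval without a pseudocount (lines, ending at the edge of the panel where longer), grouped by role; dashed lines mark 2-fold. For genes with few reads the point can lie outside its line, as for GRMZM2G010491. After this scaling most thioredoxins lie left of 0, the methionine sulfoxide reductases right of it, and glutathione enzymes around it.

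Thioredoxin reductases return thioredoxins to the reduced state. Of 4 such genes 2 were higher in dek40 and 0 were lower, against 6.12% and 4.82% of all genes. Their median log2 ratio was 0.58 (range -0.15 to 1.18). GRMZM2G164948 was at 19.3 RPKM in dek40 and 5.82 FPKM in the wild type, giving a log2 ratio of 1.18 (1.00 to 1.62). GRMZM5G841142 was at 6.72 RPKM in dek40 and 1.67 FPKM in the wild type, for a log2 ratio of 1.17 (0.99 to 2.24). With a pseudocount of 5 the same genes were at 0.84 and 0.59, under 2-fold. The third gene described by the bare name thioredoxin reductase, GRMZM2G136522, was at 7.88 RPKM in dek40 and 6.63 FPKM in the wild type, with a ratio of -0.15 (-0.49 to 0.15). The 3 genes together reached 33.9 RPKM in dek40 and 14.1 FPKM in the wild type, and GRMZM2G164948 held 56.9% of that sum in dek40 and 41.2% in the wild type.

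Ferredoxin-thioredoxin reductase is the plastid enzyme that takes electrons from ferredoxin. Its catalytic chain (GRMZM2G122793) was at 17.6 RPKM in dek40 and 13.3 FPKM in the wild type, with a log2 ratio of -0.02. Its reads could be bounded only at 6 in dek40 and 5 in the wild type, so the interval (-1.99 to 2.03) was too wide to place it against the other reductases. Both genes of the variable chain were under the minimum level of 1 in each library.

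Peroxiredoxins reduce hydrogen peroxide and organic peroxides through a reactive cysteine. Of 5 genes 1 was higher and 0 were lower, against 6.12% and 4.82% of all genes. Their median log2 ratio was -0.04 (range -0.74 to 1.32). The higher one, GRMZM2G145449, is described as peroxiredoxin-5, the name of a type that in plants has members in the cytosol, plastids and mitochondria. It was at 121 RPKM in dek40 and 35.5 FPKM in the wild type, on at least 996 reads in dek40 and 323 in the wild type. The log2 ratio was 1.32 (1.16 to 1.53), with the whole interval beyond 2-fold.

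The other genes of the same description stayed near the median gene. GRMZM2G055936 was at 189 RPKM in dek40 and 145 FPKM in the wild type, giving a log2 ratio of -0.04 (-0.16 to 0.08). GRMZM2G036921 was at 177 RPKM in dek40 and 111 FPKM in the wild type, for a log2 ratio of 0.25 (0.15 to 0.36). The share of GRMZM2G145449 in the sum of the 3 genes was 24.8% in dek40 and 12.2% in the wild type. It was the least abundant peroxiredoxin of the wild type and the third most abundant of dek40.

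The remaining peroxiredoxins had ratios below 0 without reaching 2-fold. The BAS1 gene (GRMZM2G139680), a plastid peroxiredoxin with a pair of working cysteines, was at 82.2 RPKM in dek40 and 103 FPKM in the wild type, with a log2 ratio of -0.74 (-0.87 to -0.62). The PER1 gene (GRMZM2G129761), a peroxiredoxin known from the aleurone and embryo of barley grain, was at 59.8 RPKM in dek40 and 56.6 FPKM in the wild type, giving a log2 ratio of -0.33 (-0.50 to -0.18), or 0.08 as deposited.

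Glutaredoxins were the second class in number. Of 18 genes 2 (11.1%) were higher and 1 (5.56%) was lower, against 6.12% and 4.82% of all genes. The other 15 stayed within 2-fold, and the median log2 ratio of the 18 was 0.46 (-0.21 to 0.79 over genes). As deposited, without scaling, 8 of the 18 were 2-fold higher and 0 were lower, against 14.7% and 2.65% of all genes. Ratios above 0 numbered 12 of 18 (66.7%), against 53.1% of all genes. The counting interval lay wholly above 0 for 8 (44.4%), against 25.0% of all genes, and wholly below 0 for 6 (33.3%), against 20.5%. More reads give narrower intervals, and the median glutaredoxin rested on at least 193 reads in dek40 and 134 in the wild type. Over all genes these medians were 83 and 64, and the part of depth in these shares was not tested. The descriptions sort 16 of them into subgroups, which in plants go with the letters of the active site.

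Subgroup I, the classical glutaredoxins, held both higher genes. Grx_C2.1 (GRMZM2G148387) was at 32.8 RPKM in dek40 and 6.75 FPKM in the wild type, on at least 185 reads in dek40 and 42 in the wild type. Its log2 ratio of 1.72 (1.37 to 2.38) was the highest of all 63 genes, a 3.29-fold difference, and 329 genes of the whole table had a higher one. Grx_C4 (GRMZM2G172357) was at 142 RPKM in dek40 and 45.9 FPKM in the wild type, for a log2 ratio of 1.20 (0.94 to 1.49).

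The close relative of the first, Grx_C2.2 (GRMZM2G150295, also grx1), was the most abundant glutaredoxin, at 422 RPKM in dek40 and 356 FPKM in the wild type. Its log2 ratio was -0.18 (-0.26 to -0.09). The 2 Grx_C2 genes summed to 454 RPKM in dek40 and 363 FPKM in the wild type, and the log2 ratio of the sums was -0.10, and Grx_C2.1 held 7.21% of the sum in dek40 and 1.86% in the wild type. The other genes of subgroup I were at -0.32 for Grx_S12 (GRMZM2G014832), which in Arabidopsis is a plastid protein, and at -0.93 (-1.40 to -0.58) for Grx_C3 (GRMZM2G004847). Subgroup I thus ran from -0.93 to 1.72.

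Subgroup II, whose members bind iron-sulfur clusters and take part in their transfer, had 4 genes. All 4 had ratios above 0 and within 2-fold (0.12 to 0.79), beside 53.1% of all genes above 0. The counting interval included 0 for 1 of them. Grx_S15.1 (GRMZM2G080722) was at 64.8 RPKM in dek40 and 27.7 FPKM in the wild type, with a log2 ratio of 0.79 (0.58 to 1.03). Its counterpart Grx_S15.2 (GRMZM5G880300) was at 22.1 RPKM in dek40 and 12.1 FPKM in the wild type, giving a log2 ratio of 0.42 (0.10 to 0.80). In Arabidopsis the S15 type is the glutaredoxin of mitochondria. Both S15 genes together reached 86.9 RPKM in dek40 and 39.8 FPKM in the wild type, and the log2 ratio of the sums was 0.69. Grx_S17 (GRMZM2G131769), a larger protein of cytosol and nucleus in Arabidopsis, was at 17.9 RPKM in dek40 and 9.08 FPKM in the wild type, with a ratio of 0.51 (0.31 to 0.80). Grx_S14 (GRMZM2G013695), a plastid protein in Arabidopsis, was at 33.7 RPKM in dek40 and 23.1 FPKM in the wild type, with a ratio of 0.12 (-0.16 to 0.40).

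Subgroup III had 7 genes, of which 1 was lower and 0 were higher, against 4.82% and 6.12% of all genes. The lower one, Grx_A2 (GRMZM2G303044), was at 31.6 RPKM in dek40 and 59.6 FPKM in the wild type. Its log2 ratio was -1.30 (-2.05 to -0.65) and -0.89, within 2-fold, as deposited. Another gene with the name Grx_A2, GRMZM2G441906, was at 8.99 RPKM in dek40 and 3.55 FPKM in the wild type, for a log2 ratio of 0.76 (-0.21 to 2.16), an interval that includes 0. The 4 genes named Grx_I1 had ratios on both sides of 0. The abundant ones had ratios of -0.21 (GRMZM2G318180, at 80.2 RPKM in dek40 and 69.4 FPKM in the wild type) and -0.46 (GRMZM2G023237, at 34.4 RPKM in dek40 and 35.8 FPKM in the wild type). The scarce ones had ratios of 0.95 (GRMZM2G178886, at 8.85 RPKM in dek40 and 2.94 FPKM in the wild type) and 0.85 (GRMZM2G311898, at 6.42 RPKM in dek40 and 2.22 FPKM in the wild type). The scarcest glutaredoxin, Grx_C15 (GRMZM2G318213), was at 1.73 RPKM in dek40 and 0.349 FPKM in the wild type, with a log2 ratio of 0.77 (-0.38 to 5.14), an interval too wide to place it. Reads may be split among genes that share a name, so values of single copies are uncertain.

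**Figure D4:**
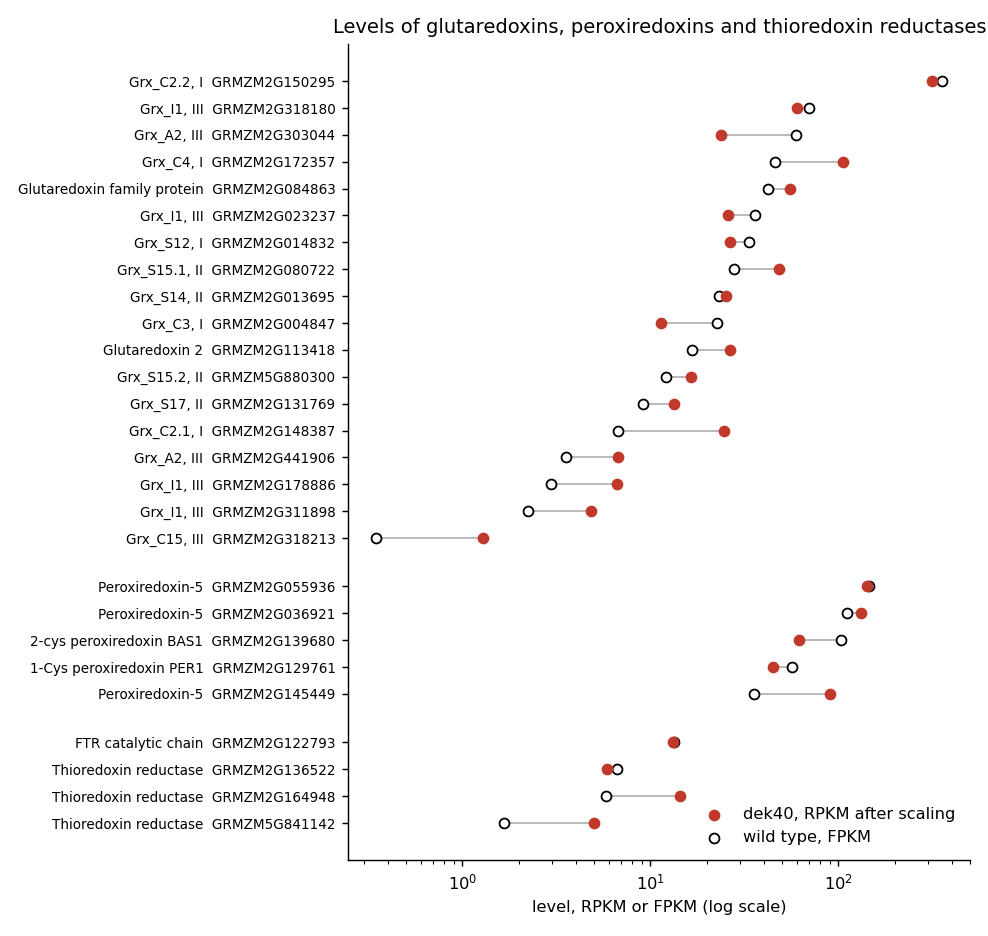
Level of each glutaredoxin, peroxiredoxin and thioredoxin reductase on a log axis, as dek40 (filled red, RPKM after scaling by 0.747) and wild type (open, FPKM), with I, II and III for the glutaredoxin subgroup and FTR for ferredoxin-thioredoxin reductase; each point is 1 library. The gap of Grx_C15 rests on very few reads and, with a pseudocount, is within 2-fold; the other widest gaps to the right are those of Grx_C2.1, Grx_C4, the peroxiredoxin GRMZM2G145449 and a pair of thioredoxin reductases, and Grx_A2 (GRMZM2G303044) shows the widest gap to the left.

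Glutathione enzymes varied least among the classes with 5 or more genes. All 6 stayed within 2-fold, between -0.23 and 0.28, each with a counting interval that included 0, and the median log2 ratio was -0.06. The most abundant glutathione peroxidase, GRMZM2G144153, was at 181 RPKM in dek40 and 139 FPKM in the wild type, with a log2 ratio of -0.04 (-0.15 to 0.08). GRMZM5G884600 was at 78.2 RPKM in dek40 and 64.4 FPKM in the wild type, with a ratio of -0.14 (-0.31 to 0.03), and GRMZM2G329144 at 27.3 RPKM in dek40 and 24.2 FPKM in the wild type, with a ratio of -0.23 (-0.54 to 0.05). Glutathione synthetase (gsh2, GRMZM2G155974), which completes glutathione, was at 4.33 RPKM in dek40 and 2.77 FPKM in the wild type, with a ratio of 0.17 (-0.25 to 0.71). No description in the group named a glutathione reductase (0 genes).

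Methionine sulfoxide reductases repair oxidised methionine, with A and B enzymes for its mirror forms. All 5 genes had ratios above 0, beside 53.1% of all genes, and all were within 2-fold. Their median was 0.40 (range 0.10 to 0.75). The counting interval lay wholly above 0 for 2 of them and included 0 for 3. The B enzyme MSRB5 (GRMZM2G577677) was the most abundant, at 43.5 RPKM in dek40 and 22.7 FPKM in the wild type, giving a log2 ratio of 0.50 (0.22 to 0.81). The A enzyme MSRA4 (GRMZM2G052666) was at 20.1 RPKM in dek40 and 11.2 FPKM in the wild type, with a log2 ratio of 0.40 (-0.02 to 0.88). MSRA2 (GRMZM2G022413) had the highest ratio, 0.75 (0.16 to 2.03), at 4.81 RPKM in dek40 and 1.72 FPKM in the wild type. MSRB1 (GRMZM2G025322) was at 15.6 RPKM in dek40 and 10.8 FPKM in the wild type, with a ratio of 0.10 (-0.26 to 0.49).

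Other genes of thiol and peroxide metabolism give the surroundings. Of 3 ascorbate peroxidases 0 were past 2-fold, with a median log2 ratio of 0.35, and the most abundant, GRMZM2G137839, was at 572 RPKM in dek40 and 335 FPKM in the wild type. The gamma-glutamylcysteine synthetase gene (GRMZM2G111579), which makes the first step to glutathione, was at 134 RPKM in dek40 and 77.6 FPKM in the wild type, with a log2 ratio of 0.36 (0.28 to 0.45). Enzymes that supply NADPH had 12 genes, with a median log2 ratio of 0.31. Of these 1 was higher and 0 were lower, against 6.12% and 4.82% of all genes. That gene, an NADP isocitrate dehydrogenase (GRMZM2G432128), was at 313 RPKM in dek40 and 109 FPKM in the wild type, for a log2 ratio of 1.10 (1.03 to 1.18). It was the most abundant of the list in both libraries. The 8 protein disulfide isomerase and oxidoreductin genes, which form disulfides in the endoplasmic reticulum, had a median log2 ratio of -0.12. Of these 1 was higher and 0 were lower, against the same shares of all genes. The higher one, the protein disulfide isomerase gene GRMZM2G106344, was at 39.2 RPKM in dek40 and 9.62 FPKM in the wild type, giving a log2 ratio of 1.51 (1.01 to 2.24). The most abundant of these, GRMZM2G091481, was at 1022 RPKM in dek40 and 1416 FPKM in the wild type, with a log2 ratio of -0.89. The descriptions named 0 dehydroascorbate reductases and 0 sulfiredoxins.

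The 8 genes with a matching description but no value of 1 in either library were 3 thioredoxins, 3 genes of thioredoxin reductases, a glutaredoxin and a peroxiredoxin. Their dek40 values lay between 0.0674 and 0.881 RPKM and their wild-type values between 0.0487 and 0.427 FPKM. The nearest gene inside the limit was GRMZM2G010491, at 0.0684 RPKM in dek40 and 1.49 FPKM in the wild type, and the nearest outside was Thioredoxin-like 2 (GRMZM5G861800), at 0.881 RPKM in dek40 and 0.300 FPKM in the wild type. Genes at such levels rest on 10 reads or fewer in the bound used here, so no difference was read from them.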

How the data were processed

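RNA from 1 dek40 and 1 wild-type kernel sample (endosperm) was sequenced. The submitters' processing notes name Bowtie2 2.1.0 and the build B73 RefGen_v3, while read counting, annotation and gene filters are not stated in the sources used here. Per the file headers, the authors deposited RPKM for dek40 and FPKM for the wild type. Of 41406 genes 0 were listed at 0.

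The commonest ratio of deposited values gave the library totals up to a common factor. All 41406 ratios equalled fractions of whole numbers times 1 constant within a relative tolerance of 1e-12. The whole numbers allowed were so large that almost any ratio near 1 would pass. The fit of the ratios alone therefore does not show that they are ratios of reads. The smallest whole reads giving both values are a lower bound; they cover 86.3% of the dek40 total and 86.5% of the wild-type total. They served only for exact Clopper-Pearson 95% intervals, which cover counting error alone and are never narrower than full counts would make them. Scaling used the 25115 genes at 1 or more in both libraries. The computation ran in Python 3.11.15 with SciPy 1.17.1 and was tested on simulated data.

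The genes, role groups and lists were chosen with earlier results of these data known. Named genes were those past 2-fold, the 3 most abundant of each role in the wild type, and in the other lists those past 2-fold and the most abundant; further ones were named after their values were seen. RefSeq names (assembly Zm-B73-REFERENCE-NAM-5.0, another build) matched 60 of the 63 genes. No test was possible with 1 library per genotype. Alternatives covered scaling, pseudocount, minimum level and fold. Protein and promoter features were not analysed here.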

Additional observations from a re-analysis of the deposited data

How the results depend on the processing

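As deposited, 14 of the 63 genes were 2-fold higher and 3 lower (background 14.7% and 2.65%), the median log2 ratio was 0.38 beside 0.39 for all genes, and the higher share of genes past 2-fold was 82.4%, against 60.0% after scaling (84.7% and 55.9% over all genes). With zeins left out and equal sums, 10 were higher (background 10.5%). With a pseudocount of 0.1, 11 were higher (background 11.9%), and with a pseudocount of 5, 3 were higher (background 1.76%). At 1.5-fold, 14 were higher and 8 lower (background 17.3% and 13.1%). A change of minimum level leaves the ratio of a gene unchanged, so it could not undo a call. In all 6 alternatives of scaling, pseudocount and minimum level, 5 calls stood: GRMZM2G150091 (-6.99 to -4.56), GRMZM5G892522, GRMZM2G148387, GRMZM2G172357 and GRMZM2G145449. Of the others, GRMZM2G303044 was within 2-fold as deposited, and GRMZM2G164948, GRMZM5G841142, GRMZM2G017419 and GRMZM2G010491 with a pseudocount of 5. The 26 genes counted here were those past 2-fold and the 3 most abundant of each role in the wild type. Of these 10 carried a call, and 0 of the 10 changed sign under any of these alternatives. A pseudocount cannot change the sign of a ratio, and scaling shifted log2 ratios by at most 0.42, so calls of 2-fold could not change sign. As deposited, 10 of the 26 changed sign, all of them within 2-fold. Other genes named above, among them PER1, changed sign as well. Of 155 alternative values of the 26 genes 32 moved by more than counting error, and those under another minimum level could not move. Over all 63 genes, 32 ratios were below 0 after scaling and 13 (20.6%) as deposited, the latter against 23.2% of all genes. Without GRMZM2G150091 (added after its value was seen) the thioredoxin median was -0.28. Depth limits the scarce genes: GRMZM2G318213, on at least 9 reads in dek40 and 2 in the wild type, had an interval of -0.38 to 5.14. No paired analysis was possible because there was 1 library per genotype.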

Other observations

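The description rule misses genes that the RefSeq table names as close partners of this group; those below were picked from the names after their values were seen. The glutathione reductase gene gsr1 (GRMZM2G172322), which returns oxidised glutathione to its reduced form, was at 61.3 RPKM in dek40 and 28.9 FPKM in the wild type, with a log2 ratio of 0.65 (0.54 to 0.79). The nucleoredoxin gene nrx1 (GRMZM2G048324), a relative of thioredoxin, was at 255 RPKM in dek40 and 272 FPKM in the wild type, giving a log2 ratio of -0.51 (-0.56 to -0.46). The methionine sulfoxide reductase gene MSRB3 (GRMZM2G089308) was at 15.5 RPKM in dek40 and 14.0 FPKM in the wild type, for a log2 ratio of -0.25 (-0.62 to 0.08), on the other side of 0 from the 5 genes the rule took.

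Dehydroascorbate reductases, which use glutathione to recover ascorbate, differed widely among themselves. The gene dhar2 (GRMZM2G005710) was at 3.27 RPKM in dek40 and 15.6 FPKM in the wild type, on at least 37 reads in dek40 and 194 in the wild type, with a log2 ratio of -2.27 (-3.22 to -2.16). The abundant genes dhar3 (GRMZM2G035502) and dhar1 (GRMZM5G855672) were within 2-fold, at 0.08 and -0.53, and the scarce dhar4 (GRMZM5G826194) was at 0.57 (-0.07 to 2.72). Of these 4 genes 1 was lower by 2-fold and 0 were higher, against 4.82% and 6.12% of all genes. The ascorbate peroxidase gene apx2 (GRMZM2G140667), also without an informative description, was at 167 RPKM in dek40 and 181 FPKM in the wild type, giving a log2 ratio of -0.54.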
